A study of Mus musculus with 6 samples.

Results

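The 10 genes described here encode the 5 NF-kB subunits (Rela, Rel, Relb, Nfkb1 and Nfkb2) and 5 IkB proteins that bind them (Nfkbia, Nfkbib, Nfkbie, Nfkbid and Nfkbiz). They were taken by symbol from the 52636 genes of the deposited tables, and all 10 were found. Transcripts were measured by RNA sequencing in RAW264.7 cells, a single macrophage line of BALB/c origin, in 2 groups. The C2S group (3 libraries) came from cells exposed to an extract of that name at 150 µg/ml over 24 h, and the PM_control group (3 libraries) from cells exposed to none of it (0 µg/ml). Neither name is written out in the labels. Whether replicates were separate cultures is not stated either, so p-values cover only the spread among these libraries, which may be technical.

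NF-kB is a family of dimeric transcription factors built from subunits that share the Rel homology domain. In resting macrophages most dimers are held in the cytoplasm by IkB proteins. Signals from Toll-like receptors or TNF receptors activate the IKK kinases, which mark the classical IkB proteins for degradation by the proteasome, and the freed dimers enter the nucleus. Several of the family's own genes are themselves NF-kB targets, so a burst of activity is followed by new synthesis of inhibitors and precursors. The transcripts measured here report neither the location of the proteins nor their degradation.

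Depth was 8594485 to 10491307 estimated counts per C2S library and 9149574 to 10665869 per PM_control library. Levels are given as CPM, a gene's counts scaled to a common library total. As a mark for low levels, counting error only, 3 counts stand for 0.281 to 0.349 CPM by raw library total. The 10 family members had between 38 and 2428 counts in each library. The 10 macrophage markers summed to between 72039 and 86501 counts with C2S and between 69497 and 83778 in PM_control. Mertk contributed a single count to these sums. Of 16 markers of T, B, fibroblast, epithelial and endothelial cells, 7 were at 0 throughout, among them Ms4a1, Cd3e, Col1a2, Pdgfra, Epcam and Cdh1, and the 16 summed to between 28 and 49 counts with C2S and between 7 and 20 in PM_control. Part of that difference was Cd79a, with 22, 8 and 11 counts with C2S and 1, 3 and 0 in PM_control. Its part in the results below was not tested.

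Promoter stretches with the kB consensus, the sequence that NF-kB dimers bind, are shown for the 5 family members where such letters were found, because feedback through such sites is known for several genes of the family. RefSeq promoter windows (GRCm38.p6, from 250 bases before to 50 bases after an annotated start) were found for 7 of the 10 genes, and not for Relb, Nfkb1 and Nfkbiz. Capitals mark the kB match, lower case its surroundings, and each line reads 5′ to 3′ on the gene's own strand.
Nfkbia, chr12:55492648-55492721, minus strand: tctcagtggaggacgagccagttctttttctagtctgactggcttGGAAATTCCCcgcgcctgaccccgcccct
Rel, chr11:23771006-23771106, minus strand: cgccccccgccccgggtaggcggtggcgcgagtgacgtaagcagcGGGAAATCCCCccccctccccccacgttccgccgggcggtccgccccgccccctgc
Nfkb2, chr19:46305445-46305513, plus strand: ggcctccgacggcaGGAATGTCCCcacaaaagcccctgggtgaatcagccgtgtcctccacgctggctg
Nfkbid, chr7:30422156-30422279, plus strand: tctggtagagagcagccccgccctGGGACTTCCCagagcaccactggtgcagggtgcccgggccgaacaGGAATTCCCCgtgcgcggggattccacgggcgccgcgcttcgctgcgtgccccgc
Nfkbie, chr17:45555549-45555648, plus strand: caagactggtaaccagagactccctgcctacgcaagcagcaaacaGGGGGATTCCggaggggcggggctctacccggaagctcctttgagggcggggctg

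The consensus was searched on both strands, and the run of capitals in Rel holds a pair of overlapping matches. It occurred in some window of 5 of the 7 genes (71.43%), against 529 of the 8722 tested genes with a window (6.07%). Nfkb2 and Nfkbid have 3 windows each, which gives them more letters in which to match, and Rela and Nfkbib had no match. The stretches shown for Nfkb2 and Nfkbid lie inside the annotated genes, at later starts. The Nfkbid window at the start of the gene had no match. Nfkb2 had 6 matches, counting overlaps and repeats between windows. Not all of them are shown, since stretches that touch untranslated exon sequence were left out. The AP-1 letters TGANTCA, also read on both strands, were found for Nfkb2 and Nfkbie, which is 2 of 7 genes against 5.76% of tested genes. Among genes around the family, the consensus was found for 5 of 10 genes that restrain NF-kB signalling (50%) and for 8 of 22 target genes (36.36%). Among IKK and its activators it was found for 3 of 16, and among the genes of IkB degradation for 0 of 7. These matches describe letters, and binding was not measured.

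Among the transcripts, most of the family was higher with C2S, but the nuclear IkB genes Nfkbid and Nfkbiz moved in opposite directions. Of the 10 genes, 7 rose, 1 fell and 2 did not pass the test (edgeR's quasi-likelihood test, adjusted p under 0.05 over 11561 genes). In the same test 55.4% of all tested genes were called, 27% as higher and 28.4% as lower, so a call alone was common in this comparison. Called rises of at least 2-fold were fewer, at 7.34% of tested genes, and Relb and Nfkbiz were among them. Called falls of at least 2-fold made up 7.17% of tested genes and 0 of the 10. The family's median log2 fold change was 0.50, against -0.0021 over all tested genes, and values ranged from -0.95 for Nfkbid to 1.49 for Nfkbiz. The CPM of the groups did not overlap for 9 of the 10 genes, against 61.1% of all tested genes. In bulk RNA, fewer cells expressing a gene and less RNA of it per cell cannot be told apart.

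**Figure D1:**
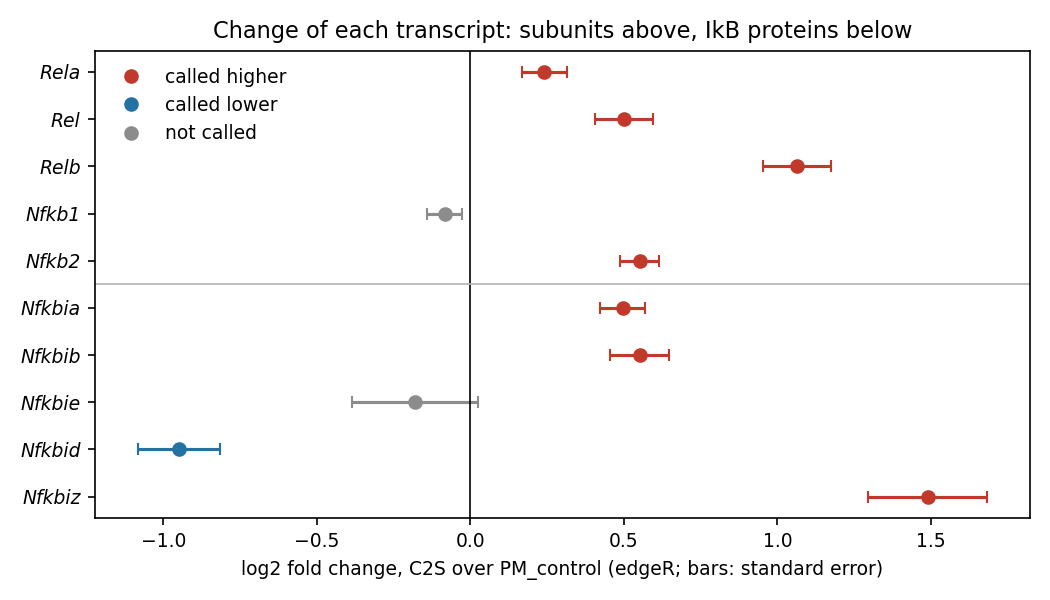
Log2 fold change of each transcript, C2S over PM_control, from edgeR (x axis; bars are standard errors, 3 libraries per group), with subunits in the upper and IkB proteins in the lower block. Relb (1.07) and Nfkbiz (1.49) lie farthest to the right, Nfkbid (-0.95) lies alone on the far left, and Nfkb1 and Nfkbie are grey because they did not pass the test.

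Rela, Rel and Relb carry transactivation domains and drive transcription. Rela (ENSMUSG00000024927, chromosome 19, 5637483 to 5648130, GRCm38), the p65 subunit of the most common dimer in macrophages, had 100.2, 114 and 112 CPM with C2S, against 95.6, 94.5 and 85.7 CPM in PM_control. The C2S values all lay above the PM_control values, though by little. The rise was the smallest of the 7, 0.24 ± 0.07 on the log2 scale (± SE; edgeR, adjusted p = 0.0105). The call ended without PM_control replicate 3 (edgeR, adjusted p = 0.0626), with library sizes alone as the scaling (0.0785) and in limma on log2(TPM + 1) (0.253). It also ended once the trend over GC content was removed, where the log2 fold change was 0.05 (edgeR, adjusted p = 0.6; range over its alternatives 0.00305 to 1). Rela has a GC content of 59.4%.

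Rel (ENSMUSG00000020275, chromosome 11, 23736847 to 23770970), the c-Rel subunit best known from lymphocytes and from cytokine genes of myeloid cells, had 75.1, 98.1 and 80.5 CPM with C2S, against 63.1, 56.4 and 59.5 CPM in PM_control. C2S replicate 2 was the highest of the 6, and the groups did not overlap. Rel rose by 0.50 ± 0.09 on the log2 scale (edgeR, adjusted p = 0.000263), and no single library decided that call. In limma on log2(TPM + 1) it just missed the threshold, with an adjusted p of 0.0578 (its alternatives ranged from 1.74e-07 to 1).

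Relb (ENSMUSG00000002983, chromosome 7, 19606217 to 19629438), the partner of p52 in the slower noncanonical pathway, showed the clearest separation of the subunits. It had 36.1, 35.9 and 36.8 CPM with C2S, against 15.7, 20.1 and 16.3 CPM in PM_control. The C2S libraries were nearly equal to one another and every one was well above the highest PM_control library. Relb rose 2.09-fold, or by 1.07 ± 0.11 on the log2 scale (edgeR, adjusted p = 4.6e-07), and it was called under all 19 alternatives.

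Nfkb1 and Nfkb2 encode the precursors p105 and p100. Each is cut to a DNA-binding subunit, p50 or p52, that lacks a transactivation domain, while the uncut precursor acts as an inhibitor through its ankyrin repeats. Nfkb1 (ENSMUSG00000028163, chromosome 3, 135584655 to 135691547) had 202, 207 and 205 CPM with C2S, against 223, 219 and 209 CPM in PM_control. The C2S values were all below the PM_control values, but the 95% interval of the fitted change held both directions. Nfkb1 did not pass the test (log2 fold change -0.08 ± 0.06; 95% interval -0.19 to 0.03; edgeR, adjusted p = 0.228). With library sizes alone it was called lower, at -0.17 (edgeR, adjusted p = 0.0149), and with the GC trend removed its value was 0.0036 (edgeR, adjusted p = 0.964; range over its alternatives 0.0149 to 1).

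Nfkb2 (ENSMUSG00000025225, chromosome 19, 46304320 to 46312385) had 125, 122 and 125 CPM with C2S, against 87.2, 85.5 and 81.5 CPM in PM_control. Both groups were tight and far apart. Nfkb2 rose by 0.55 ± 0.06 on the log2 scale (edgeR, adjusted p = 1.54e-06). The annotated gene AC114539.1, not analysed here, covers 11.6% of its exon length. No source used here gives the strand setting of the counting, so its value is uncertain to that extent.

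Nfkbia, Nfkbib and Nfkbie encode the classical inhibitors IkBα, IkBβ and IkBε, which hold dimers in the cytoplasm until IKK marks them for degradation. Nfkbia (ENSMUSG00000021025, chromosome 12, 55489410 to 55492647), the fast feedback inhibitor that NF-kB itself induces, had 87.6, 90.2 and 82.7 CPM with C2S, against 60.6, 63.9 and 60.1 CPM in PM_control. The groups were clearly apart. It rose 1.41-fold, or by 0.50 ± 0.07 on the log2 scale (edgeR, adjusted p = 2.4e-05).

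Nfkbib (ENSMUSG00000030595, chromosome 7, 28758251 to 28767512), a slower and more stable inhibitor, had 41.4, 40.9 and 43.4 CPM with C2S, against 29.3, 30.9 and 25.4 CPM in PM_control. Again no PM_control library reached the lowest C2S library, and Nfkbib rose by almost the same amount as Nfkb2 (log2 fold change 0.55 ± 0.10; edgeR, adjusted p = 0.00011). Exons of Ccer2 on the opposite strand cover 14.5% of its exon length, and Ccer2 itself had 0 counts in all 6 libraries.

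Nfkbie (ENSMUSG00000023947, chromosome 17, 45555703 to 45563169), which prefers dimers with Rela or Rel, had 5.99, 6.73 and 8.15 CPM with C2S, against 6.97, 9.81 and 6.82 CPM in PM_control. The groups overlapped, and with 56 to 97 counts per library its spread was wide. It did not pass the test (log2 fold change -0.18 ± 0.20; edgeR, adjusted p = 0.474), and the 95% interval ran from -0.58 to 0.22. Without PM_control replicate 2 the value was 0.0039 (edgeR, adjusted p = 0.991; range over its alternatives 0.162 to 1).

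Nfkbid and Nfkbiz encode IkBNS and IkBζ, inducible nuclear members of the IkB family that join p50 on DNA and adjust single genes rather than holding dimers in the cytoplasm. Nfkbid (ENSMUSG00000036931, chromosome 7, 30421732 to 30428746) had 11.0, 10.6 and 10.9 CPM with C2S, against 22.8, 21.3 and 18.6 CPM in PM_control. The lowest PM_control library was far above every C2S library. Nfkbid fell 1.93-fold, which is -0.95 ± 0.13 on the log2 scale (edgeR, adjusted p = 1.37e-05), and was the only family member called lower in that fit.

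Nfkbiz (ENSMUSG00000035356, chromosome 16, 55811375 to 55838899), needed for the secondary response genes of macrophages such as Il6, had 16.2, 15.6 and 11.4 CPM with C2S, against 5.60, 5.76 and 3.99 CPM in PM_control. Replicate 3 was the lowest library in both groups, yet the groups did not overlap. Nfkbiz rose 2.81-fold, or by 1.49 ± 0.19 on the log2 scale (edgeR, adjusted p = 5.58e-06), on 101 to 165 counts per C2S library and 38 to 61 per PM_control library. Nfkbid and Nfkbiz, like Relb, were called in the same direction under all 19 alternatives, which included leaving out each library.

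The length that RSEM estimated for a gene's transcripts, which reflects the mix of isoforms, gave a second readout. It was fixed for Rel, Rela and Nfkbie, which have a single transcript in the tables, and varied for the other 7 genes. Of those 7, only Nfkbiz had groups that did not overlap, with 3587, 3485 and 3637 bases with C2S, against 3422, 3039 and 3172 bases in PM_control. Non-overlapping lengths were found for 15.6% of the 9132 tested genes whose length varied, so 1 of 7 is near the background. The PM_control estimates for Nfkbiz rest on few reads.

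Per transcript length, the family spanned a wide range of levels, and their order differed between the groups. In TPM (transcript abundance scaled for length and depth), Nfkbia was the most abundant with C2S, at 133 ± 16.2 (SD, n = 3), followed by Nfkb1 at 95.1 ± 2.66, Rela at 62.7 ± 4.68, Nfkb2 at 62.4 ± 0.189 and Nfkbib at 59.6 ± 1.44. Relb (26.7 ± 0.828), Rel (16.6 ± 2.56), Nfkbid (9.26 ± 0.538), Nfkbiz (6.19 ± 1.24) and Nfkbie (4.56 ± 0.7) came after them. Rela and Nfkb2 overlapped with C2S, as did Nfkbiz and Nfkbie, while all other neighbours in that order were apart in every library.

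In PM_control the order began with Nfkb1 at 107 ± 2.71 TPM and Nfkbia at 100.5 ± 10.3 TPM, which overlapped, then Rela at 57.0 ± 3.89 TPM. Nfkb2 (45.9 ± 2.27 TPM) and Nfkbib (43.6 ± 4.4 TPM) followed and overlapped, then Nfkbid at 20.1 ± 2.15 TPM. Relb (13.9 ± 2.01 TPM) and Rel (12.6 ± 0.894 TPM) overlapped in turn, and Nfkbie (5.53 ± 1.15 TPM) and Nfkbiz (2.65 ± 0.536 TPM) were lowest and apart. Nfkbid thus stood at rank 8 of 10 with C2S, behind Relb and Rel, and at rank 6 in PM_control, ahead of both. For Rela and Nfkbie the TPM ranges of C2S and PM_control overlapped, and for the other genes they did not. In CPM the groups were apart for 61.1% of all tested genes, and the share in TPM was not computed. Nfkb1 was lower with C2S on the TPM scale. On log2(TPM + 1) of filtered genes its log2 fold change was -0.1657, where the median of all genes was itself -0.0937.

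**Figure D2:**
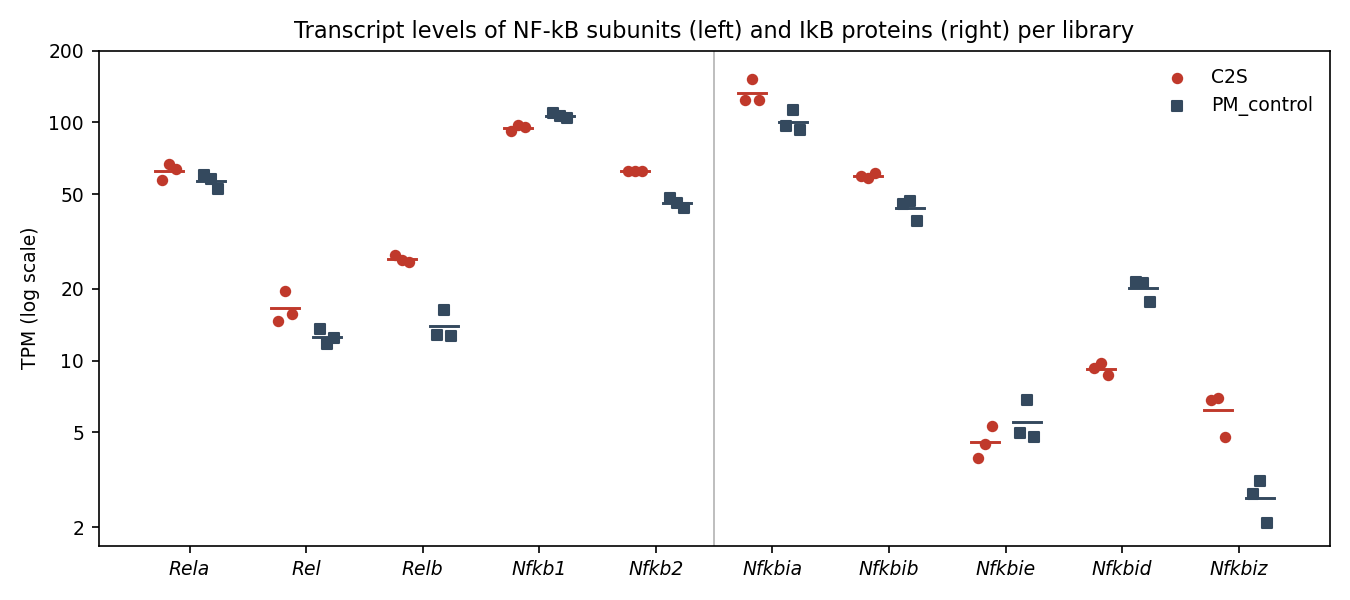
TPM of each gene in each library on a log scale (points; horizontal lines are group means; 3 C2S libraries left of 3 PM_control libraries). Nfkbid is the gene whose C2S points (8.69 to 9.76 TPM) lie well below its PM_control points (17.6 to 21.5 TPM), while Relb and Nfkbiz show the widest gaps upward.

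Set against each other, the transcripts of the subunits and of the IkB proteins were both higher in total with C2S. The 5 subunits summed to 255, 273 and 264 TPM with C2S, against 245, 238 and 226 TPM in PM_control. The 5 IkB genes summed to 203, 231 and 204 TPM with C2S, against 171, 190 and 156 TPM in PM_control. Neither pair of ranges overlapped, but the ratio of IkB to subunit transcripts did: it was 0.798, 0.848 and 0.773 with C2S, against 0.699, 0.799 and 0.690 in PM_control. The C2S mean of that ratio was 0.806 ± 0.0385 and the PM_control mean 0.729 ± 0.0606 (SD, n = 3 each). No test was made on these sums, because the genes had been chosen with results known.

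The make-up of the subunit transcripts differed more than their total. Nfkb1 held 36.2%, 35.8% and 36.2% of the subunit TPM with C2S, against 44.9%, 44.6% and 46.3% in PM_control. Relb held 10.9%, 9.72% and 9.89% with C2S, against 5.25%, 6.82% and 5.62% in PM_control, and Nfkb2 held 22.9% to 24.6% with C2S, against 19.3% to 19.7% in PM_control. Rel held 5.76% to 7.17% with C2S, against 4.95% to 5.54% in PM_control. The share of Rela overlapped between the groups, at 22.6% to 24.4% with C2S and 23.3% to 24.6% in PM_control. The transcripts of the noncanonical pair, Relb and Nfkb2, thus took a larger part of the subunit pool with C2S, and so did those of Rel. Nfkb2 stood at 0.657 ± 0.0204 of the level of Nfkb1 with C2S, against 0.43 ± 0.0109 in PM_control. Relb stood at 0.428 ± 0.0455 of the level of Rela with C2S, against 0.245 ± 0.0332 in PM_control.

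Summed by kind, the classical IkB transcripts were higher and the nuclear pair Nfkbid and Nfkbiz lower with C2S, although single genes of either kind differed. Bcl3, a further nuclear IkB family protein described below, was not part of this sum. Nfkbia, Nfkbib and Nfkbie together had 187, 215 and 190 TPM with C2S, against 147, 166 and 136 TPM in PM_control. Nfkbid and Nfkbiz together had 16.2, 16.7 and 13.4 TPM with C2S, against 24.2, 24.3 and 19.7 TPM in PM_control, since the fall of the more abundant Nfkbid outweighed the rise of Nfkbiz. Nfkbid held 4.22% to 4.58% of the IkB TPM with C2S and 11.1% to 12.6% in PM_control, while Nfkbiz held 2.34% to 3.37% with C2S and 1.33% to 1.64% in PM_control.

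**Figure D3:**
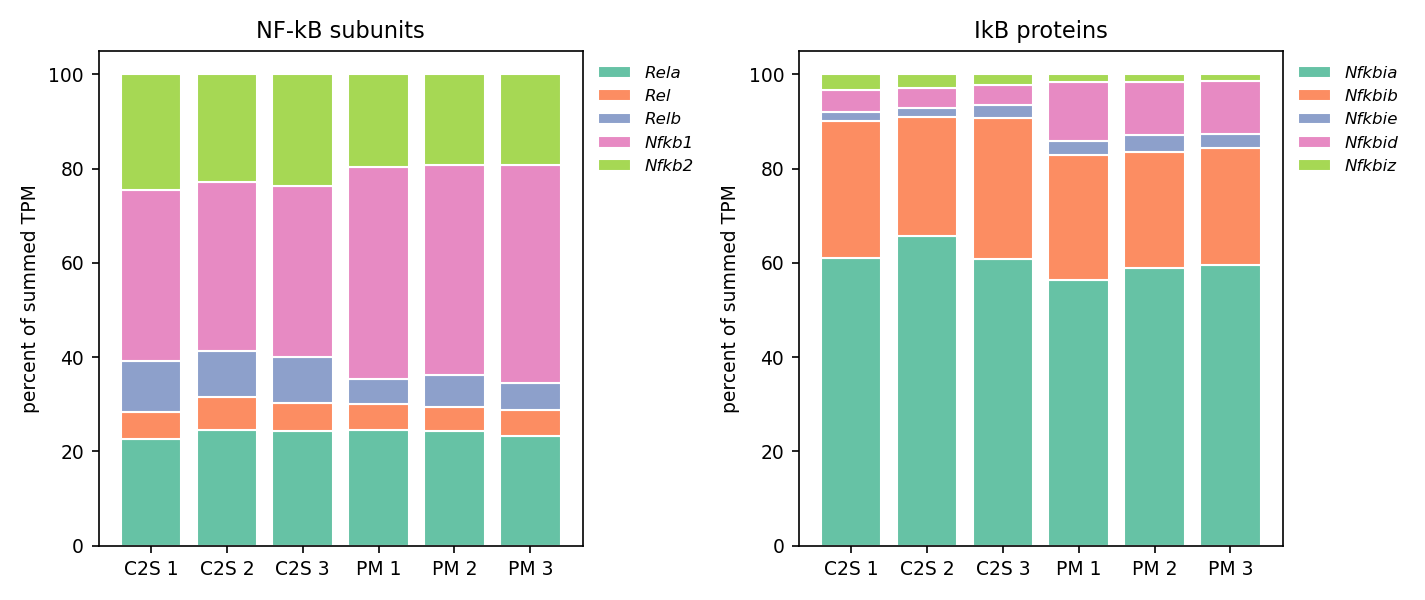
Stacked bars of the percent of summed TPM that each gene took in each library, for the subunits (left panel) and the IkB proteins (right panel), with the 3 C2S libraries left of the 3 PM_control libraries (PM). The Nfkb1 part of the subunits averages 36.1% with C2S and 45.2% in PM_control, and the Nfkbid part of the IkB proteins is between 4.22% and 4.58% with C2S and between 11.1% and 12.6% in PM_control.

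**Figure D4:**
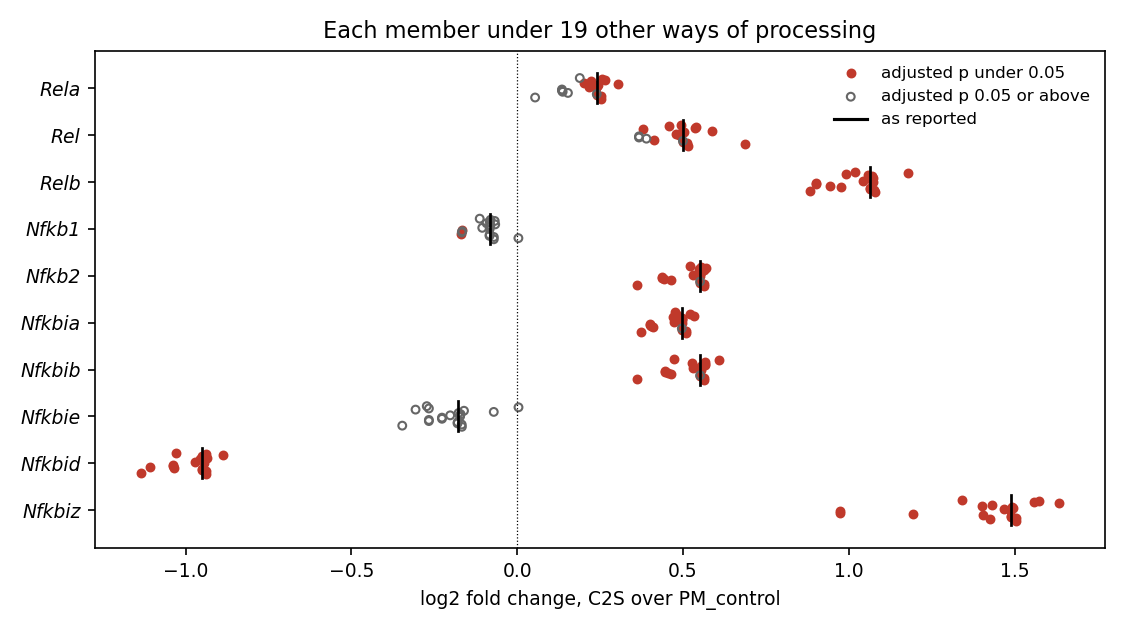
Log2 fold change of each gene under 19 other ways of processing (points; filled where the adjusted p was under 0.05), with the reported value as a black bar (x axis, C2S over PM_control). All points are filled for Relb, Nfkbid and Nfkbiz, while those of Nfkbie (-0.35 to 0.0039) and Nfkb1 (-0.17 to 0.0036) reach 0.

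Genes that act upstream of NF-kB moved in both directions. Of 22 genes of IKK and its activators, 11 rose and 5 fell, with a median log2 fold change of 0.23. In all, 72.7% of the list was called, against 55.4% of all tested genes, of which 27% rose and 28.4% fell. On log2(TPM + 1) the number called higher was 5 and with library sizes alone 7, and the number called lower was 3 with the GC trend removed and 2 on log2(TPM + 1) without a filter. Ikbkb, the main catalytic kinase of the canonical pathway, had 103 ± 4.54 CPM with C2S and 83.9 ± 1.84 CPM in PM_control (edgeR, adjusted p = 0.00159), but was not called by limma on log2(TPM + 1), where the adjusted p was 0.244 (its alternatives ranged from 0.000563 to 1). Bcl10, an adaptor that links immune receptors to IKK, rose by 0.59 ± 0.08 on the log2 scale and Map3k3, a kinase upstream of IKK, by 0.54 ± 0.08. Ripk1, the kinase scaffold of TNF receptor signalling, rose by 0.50 ± 0.07, with an uncertain value because some of its reads were shared with other genes.

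Genes of the same list that fell included Tab1, an adaptor of the TAK1 kinase, with 13.1 ± 2.1 CPM with C2S and 34.5 ± 4.23 CPM in PM_control (log2 fold change -1.40 ± 0.13; edgeR, adjusted p = 1.42e-07). Ikbkg, the regulatory IKK subunit NEMO, had 32.9 ± 2.28 CPM with C2S and 40.5 ± 3.01 CPM in PM_control (edgeR, adjusted p = 0.0124). Leaving out C2S replicate 3 ended the call (0.0631), as did leaving out PM_control replicate 1 (0.0594). The call also ended with the GC trend removed (edgeR, adjusted p = 0.0719; range over its alternatives 0.00199 to 1). Ube2n, the ubiquitin-conjugating enzyme that makes chains for TAK1, had 72.9 ± 0.847 CPM with C2S and 90.0 ± 3.88 CPM in PM_control, with partly shared reads, and its call was lost with the GC trend removed (edgeR, adjusted p = 0.666; range 0.000182 to 1).

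The 10 genes around the ubiquitin ligase that marks IkB proteins for degradation did not pass the test in edgeR. They were the ligase subunits Btrc, Fbxw11, Cul1, Skp1a and Rbx1, Nedd8 and its conjugating enzyme Ube2m, which activate such ligases, and Nkiras1, Nkiras2 and Commd1, which bind IkB or NF-kB proteins. The list gave 0 calls in edgeR, where 55.4% of all tested genes were called, and 0 in DESeq2. At an unadjusted p under 0.05 there were 3, and the smallest adjusted p was 0.0517 in edgeR. Limma with voom, limma on log2(TPM + 1) of filtered genes and edgeR with library sizes alone each called 1 gene lower, RLE scaling 1 higher and removal of the GC trend 2 higher. Leaving out C2S replicate 1 gave 1 higher, and leaving out C2S replicate 2 gave 1 in each direction. Their median log2 fold change was 0.06. Transcripts of these 10 genes thus showed no change that passed the edgeR test as reported, while those of Nfkbia and Nfkbib rose.

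Receptors and kinases of the noncanonical pathway, which processes p100 for Relb, were split. Of 10 tested genes 3 rose and 4 fell, with a median log2 fold change of -0.20. Over all tested genes 27% rose and 28.4% fell, so a split alone was common. The receptors that rose were Tnfrsf1b, TNF receptor type II, with 100.5 ± 11.2 CPM with C2S and 15.9 ± 2.16 CPM in PM_control (log2 fold change 2.66 ± 0.11; edgeR, adjusted p = 3.98e-12), Cd40, with 8.55 ± 0.568 CPM with C2S and 1.97 ± 0.516 CPM in PM_control, and Tnfrsf12a, the TWEAK receptor, with 29.6 ± 5.58 CPM with C2S and 13.0 ± 2.25 CPM in PM_control. Those that fell included Tnfrsf11a, the RANK receptor of osteoclast precursors, with 95.0 ± 12.2 CPM with C2S and 223 ± 6.98 CPM in PM_control (log2 fold change -1.23 ± 0.08; edgeR, adjusted p = 9.67e-10). Map3k14, which encodes NIK, the kinase that starts p100 processing, had 24.8 ± 2.16 CPM with C2S and 47.1 ± 4.99 CPM in PM_control (log2 fold change -0.92 ± 0.10; edgeR, adjusted p = 1.05e-06). Traf3, the adaptor that keeps NIK low, fell as well, by 0.33 ± 0.07 on the log2 scale. Transcripts of Relb and Nfkb2 were thus higher with C2S while those of NIK were lower.

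Of 10 nuclear partners, which work with NF-kB on chromatin, 3 rose and 1 fell, with a median log2 fold change of 0.06. Calls made up 40% of this list, against 55.4% of all tested genes. Crebbp, a histone acetyltransferase, rose by 0.59 ± 0.10 on the log2 scale. Hdac1, a histone deacetylase, was called higher with partly shared reads, and lost the call under 9 of the 19 alternatives. These included library sizes alone (edgeR, adjusted p = 0.123), removal of the GC trend (edgeR, 0.0681) and log2(TPM + 1) of filtered genes (limma, 0.123). They also included the fits without C2S replicate 1 (edgeR, adjusted p = 0.094), without PM_control replicate 1 (0.0747) and without PM_control replicate 2 (0.0626; range over its alternatives 0.00287 to 1). Akirin2, a nuclear factor needed by IkBζ at Il6, had 18.3 ± 0.713 CPM with C2S and 31.5 ± 3.24 CPM in PM_control, opposite in direction to Nfkbiz (log2 fold change -0.79 ± 0.11; edgeR, adjusted p = 1.36e-05). Bcl3, another nuclear IkB family protein counted among the partners, had 13.4 ± 2.07 CPM with C2S and 13.9 ± 3.23 CPM in PM_control and did not pass the test (log2 fold change -0.05 ± 0.18; edgeR, adjusted p = 0.822).

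Genes that restrain the pathway moved in both directions with C2S. Of 12 tested, 6 fell and 2 rose, where 28.4% of all tested genes fell and 27% rose, with a median log2 fold change of -0.29. With the GC trend removed, 4 were called higher. Those that fell included Tnip3 and Tnip1, which encode ABIN proteins, partners of A20 that bind ubiquitin chains. Tnip3 had 16.5 ± 0.579 CPM with C2S and 80.5 ± 2.99 CPM in PM_control (log2 fold change -2.28 ± 0.09; edgeR, adjusted p = 1.38e-12). Tnip1 had 63.1 ± 2.9 CPM with C2S and 128 ± 5.54 CPM in PM_control (log2 fold change -1.02 ± 0.07; edgeR, adjusted p = 2.44e-09). Tnfaip3, the ubiquitin-editing enzyme A20 and, like Nfkbia, a feedback gene of NF-kB, had 4.54 ± 1.83 CPM with C2S and 9.32 ± 1.66 CPM in PM_control (log2 fold change -1.05 ± 0.25; edgeR, adjusted p = 0.00174). Its call was lost in limma on log2(TPM + 1) without a filter (adjusted p = 0.0618; range over its alternatives 2.52e-06 to 0.0638). N4bp1, an inhibitor of cytokine responses, fell by 0.99 ± 0.09 on the log2 scale. Zc3h12a rose, with 25.1 ± 1.78 CPM with C2S and 10.7 ± 1.54 CPM in PM_control (log2 fold change 1.22 ± 0.14; edgeR, adjusted p = 9.52e-07). It encodes Regnase-1, an RNase whose known targets include the Nfkbiz transcript, which rose too.

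NF-kB target genes outside the family were also divided. Of 27 tested targets 12 rose and 7 fell, with a median log2 fold change of 0.59, and 4 were called lower on log2(TPM + 1) without a filter. Cd40, named above among the noncanonical receptors that rose, is counted in this list as well. In edgeR 70.4% of these targets were called, against 55.4% of all tested genes, of which 27% rose and 28.4% fell. Ier3, an early stress response gene, had 94.8 ± 3.71 CPM with C2S and 6.33 ± 1.52 CPM in PM_control (log2 fold change 3.90 ± 0.12; edgeR, adjusted p = 1.24e-13). Cd83, a maturation marker of antigen-presenting cells, had 46.4 ± 4.18 CPM with C2S and 8.34 ± 1.39 CPM in PM_control (log2 fold change 2.48 ± 0.13; edgeR, adjusted p = 6.23e-11). Icam1, an adhesion molecule, had 378 ± 16.6 CPM with C2S and 160.5 ± 7.8 CPM in PM_control (log2 fold change 1.23 ± 0.06; edgeR, adjusted p = 3.93e-11), and another gene covers 11.7% of its exon length.

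Targets that fell included Plau, the urokinase protease, by 1.63 ± 0.08, Ptgs2, the inducible cyclooxygenase, by 0.97 ± 0.16, and Bcl2l1, a survival gene, by 0.63 ± 0.09 on the log2 scale. Tnf, the cytokine best known as a macrophage NF-kB target, had 40.2 ± 6.56 CPM with C2S and 47.5 ± 5.14 CPM in PM_control and did not pass the test (log2 fold change -0.24 ± 0.11; edgeR, adjusted p = 0.0811). It was called lower under 6 of the 19 alternatives, among them when C2S replicate 1 or PM_control replicate 3 was left out (edgeR, adjusted p = 0.0104 and 0.0367; range 0.0104 to 1). Il1b and Il6 were too low to test, with 3 and 7 counts over the C2S libraries and 0 for either gene in PM_control. Over all 89 tested pathway genes outside the family, without repeats between lists, 30 rose and 23 fell, with a median log2 fold change of 0.09. Thus 59.6% were called, near the 55.4% of all tested genes.

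**Figure D5:**
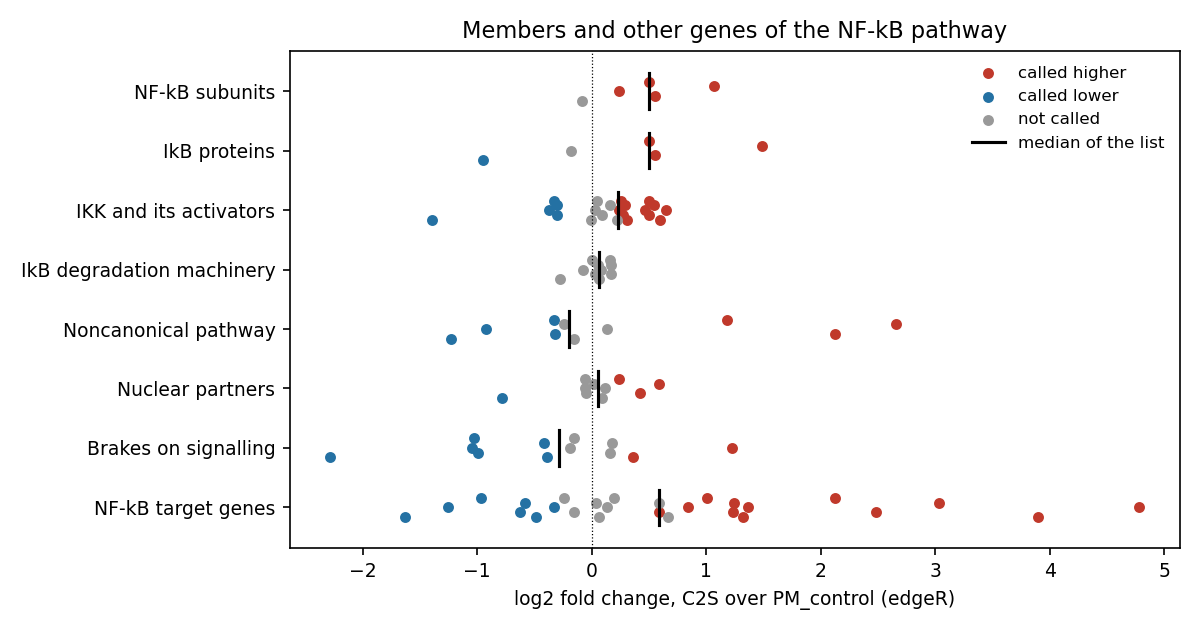
Log2 fold change (C2S over PM_control, edgeR) of the subunits, the IkB proteins and 6 groups of other NF-kB pathway genes; each point is a gene, coloured by its call, and black bars are medians. The medians run from -0.29 for the genes that restrain signalling to 0.59 for the target genes, and all points of IkB degradation are grey, not called.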

How the data were processed

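RNA of 3 C2S and 3 PM_control libraries was compared. Per the series design text, an Illumina TruSeq RNA kit was used, and the authors trimmed reads with fastp, aligned them to mm10 with STAR, counted with RSEM and used edgeR. The submitters' processing notes name STAR, RSEM and mm10. The sources used here give no versions, annotation or strand setting. Per the file headers, the deposited tables hold RSEM expected counts, in which reads that fit several genes are divided by a model, TPM, which the authors scaled for length and depth, FPKM, which was not used, and gene lengths (other deposited values).

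Expected counts were rounded. Genes were kept with filterByExpr (minimum count 10, total 15), which left 11561 genes and 99.85% of counts, and fitted with edgeR 4.0.16 (R 4.3.3), TMM scaling and group as the only term, with Benjamini-Hochberg adjustment at 0.05 over all of them. Values are means ± SD of scaled CPM, or of TPM for levels between genes. The SE is the log2 fold change divided by the root of F, and so is approximate. A gene with a count over 0.005 from a whole number was said to share reads, and one with at least 10% of exon length covered by another gene, on either strand, was called uncertain. Coordinates are GENCODE M21 (GRCm38), which held 52489 of the 52636 genes.

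The family members, the pathway lists and the marker lists were chosen with earlier results of these data known, so their counts are descriptions. All 10 family members are given, and from each pathway list at most 3 genes called higher and 3 called lower, those of smallest adjusted p with groups that did not overlap, could be named, plus Tnfaip3, Icam1, Tnf, Bcl3, Map3k14 and Ikbkb. Some genes that this rule or the marker lists hold are not reported here. Genes too low to test were named after their values were seen. Libraries of a group differed by more than sampling noise (chi-square over its degrees of freedom 4.3 to 6.46), so each counted once. That does not settle whether they came from separate cultures. Alternatives used RLE, upper quartile or no scaling, DESeq2 1.42.0, limma 3.58.1 (voom, or log2(TPM + 1) and log2(TPM + 0.1) where TPM averaged 1 or more, or unfiltered), other filters, the replicate number as a block, a GC trend removed per library, glmTreat against 1.5-fold, and each library left out. The tests were tried on simulated data, where the edgeR test made somewhat more false calls than its nominal rate. Few genes changed in that simulation, whereas 55.4% were called here, so its rate cannot be carried over to these data. Calls close to the threshold are still best read with caution.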

Additional observations from a re-analysis of the deposited data

How the results depend on the processing

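The 10 family members and 31 other named pathway genes were refitted under 19 alternatives. Relb, Nfkbid and Nfkbiz kept their direction and call under all of them, as did 15 of the other 31. The members called higher were 7 as reported and 6 with library sizes alone, and 5 in the fits on log2(TPM + 1), where Rela and Rel were not called. Members called lower were 1 as reported and 2, Nfkb1 joining Nfkbid, with library sizes alone and on log2(TPM + 1) without a filter. A test against a 1.5-fold change (glmTreat), which asks more of each gene by construction, called 3 members, 2 of them higher, and 1928 of all genes. Of all calls, 48.8% were higher as reported, 38.3% with library sizes alone and 35.9% on log2(TPM + 1). The median of all genes was -0.0021 as reported, -0.1009 on log2(TPM + 0.1) and 0.1049 with no low-count filter, and the cause was not tested. With the GC trend removed, Nfkb1 changed sign at 0.0036. Leaving out each library gave Nfkbie from -0.3066 to 0.0039 (without PM_control replicate 2) and Bcl3 from -0.2204 to 0.1176 (without PM_control replicate 3), with 0.0344 for Bcl3 without C2S replicate 3. Leaving out each library gave 7 to 8 members called and 5901 to 6338 genes in all. Among IKK and its activators, those called lower were 5 as reported and 3 without PM_control replicate 2. Replicate numbers gave no clear pairing. Deviations of same-numbered libraries correlated at -0.0112, 0.0686 and 0.0344. C2S replicates 2 and 3 correlated best with their own number, and C2S replicate 1 with PM_control replicate 3 (0.0819). With 3 libraries per group these values cannot exclude pairing. With the replicate number as a block 6489 genes and 8 members, 7 of them higher, were called. Depth limits Nfkbie and Nfkbiz most, the members with the fewest counts.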
